A study of Saccharomyces cerevisiae with 9 samples.

Results

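moxGFP overexpression was compared with an empty vector in log-phase cells of the budding yeast Saccharomyces cerevisiae. The comparison took the 3 libraries labelled MOXop and the 3 labelled Vector, 6 of the 9 libraries of the series, and all 7128 gene rows of the count table without its 92 spike-in rows. The study examined what strong overexpression of green fluorescent proteins does to the cell, and RNA-seq was used to describe the state of the overexpressing cells. The host in all groups, vector control included, was the diploid laboratory strain BY4743, which has no working URA3 or LEU2 of its own and is heterozygous for a deletion of MET17. Every group carried the multicopy plasmid pTOW40836, which holds URA3 and leu2-89, a LEU2 allele with most of its promoter missing, and grew at 30 °C to an optical density of 1.0 in synthetic complete medium without leucine and uracil. In this medium cells with many plasmid copies grow faster, so that the copy number is itself under selection and can differ between cells and groups. In the moxGFP group the plasmid expressed moxGFP, a GFP variant without cysteines, from the strong promoter of the glycolytic gene TDH3, and in the vector control it held no GFP. The other 3 libraries came from cells with EGFP, the cysteine-containing variant, in the same plasmid. They entered the same fit, and so its filter, scaling and estimate of spread. Their own values are given only for comparison with moxGFP.

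Yeast cells devote much of their transcription to making ribosomes. The genes of ribosome assembly factors and of RNA polymerase I share 2 promoter elements, PAC and RRPE, and rise and fall together with growth conditions, as do the genes of ribosomal proteins. Other gene groups report on nutrients: Zap1 activates zinc uptake genes when zinc is short, Pho4 activates phosphate uptake and phosphatase genes when phosphate is short, and Bas1 activates the purine synthesis genes when adenine is short.

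The vector libraries held 10643868 to 12959660 counts over gene rows and the moxGFP libraries 8941674 to 9064524. Values below are CPM, counts of a gene scaled to a common library total after TMM normalization, with replicates 1 to 3 in order. Fold changes are log2 of moxGFP over vector, from edgeR's quasi-likelihood test with 3 libraries per group and the Benjamini-Hochberg false discovery rate (FDR). The SE after ± is not an output of that test. It was back-calculated as the size of the log2 fold change over the square root of the test's F statistic. One library stood apart: ribosomal RNA rows took 61.1% of gene counts in moxGFP replicate 2 and from 2.73 to 23.0% in the 5 other libraries compared. Its log2 CPM correlated with those of moxGFP replicates 1 and 3 at 0.807 and 0.804 across genes, where the remaining pairs within a group were at 0.961 to 0.975. Relative to those replicates it also read short genes higher, by a median of 0.65 on the log2 scale for genes up to 500 bases, and genes over 2000 bases lower, with a median of -0.45. Total counts are therefore given with and without it, as are counts or medians of most gene lists. Single genes are given without it or another library where its absence changed the call or moved the fold by more than 1.5 times. In bulk RNA, fewer cells of a kind and less RNA per cell cannot be told apart.

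**Figure D1:**
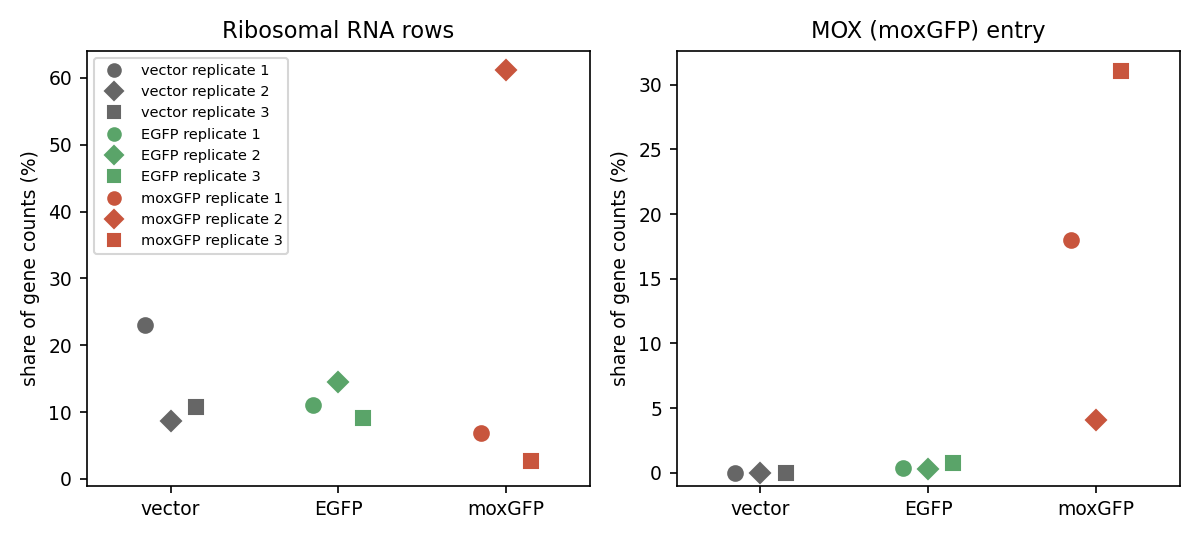
Share of gene counts (%) taken by ribosomal RNA rows (left) and by the MOX entry (right) in each library, with 1 point per library, grouped by vector, EGFP and moxGFP. moxGFP replicate 2 sits at 61.1% ribosomal RNA and 4.11% MOX, away from moxGFP replicates 1 and 3.

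With moxGFP, 937 of 6338 genes tested were called higher and 887 lower at an FDR below 0.05, which is 14.8 and 14% of the genes tested. The 3 moxGFP and 3 vector libraries did not overlap in 45.3% of genes, 22.9% with moxGFP above and 22.4% with moxGFP below. Without moxGFP replicate 2, 1182 of 6404 genes (18.5%) were called higher and 1206 (18.8%) lower, and 1686 of the 1824 genes called with it kept their call. Leaving out a library of the control lowered these counts, to 346 higher and 404 lower without vector replicate 1 and to 446 and 546 without vector replicate 3. Without moxGFP replicate 3, 716 were higher and 516 lower. The median log2 fold change over all genes was 0.14, and 0.05 without moxGFP replicate 2, so that changes are to be read against this small shift. The number of calls changed with the scaling. Library sizes alone gave 104 higher and 144 lower genes, and the ERCC spike-ins as the library size 10 and 15. With library sizes alone, 10 and 17 genes of small and large subunit assembly were called higher, and 5 zinc, 8 phosphate and 6 purine genes lower, and with the spike-ins 0, 0, 1, 2 and 3. The medians of these lists kept their sign under both.

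The transgene and the plasmid markers were looked at first, since they check the labels. The MOX entry, which counts moxGFP, was at 0.593, 0.599 and 0.686 CPM in the vector control and at 160185, 107143 and 245482 CPM with moxGFP. It took 18.0, 4.11 and 31.1% of gene counts in moxGFP replicates 1 to 3, or 19.3, 10.6 and 31.95% once ribosomal RNA was set aside. The GFP entry, which counts EGFP, was at 1.3, 6.37 and 4.57 CPM against 2459, 6094 and 3263 CPM, and held 1.53, 5.69 and 1.33% as many counts as the MOX entry in the moxGFP libraries. LEU2, which counts the leu2-89 marker, was at 8874, 10395 and 7205 CPM in the vector control and 1329, 3692 and 1182 CPM with moxGFP, a log2 fold change of -2.09 ± 0.50 (edgeR FDR 0.0122) that was -2.82 without moxGFP replicate 2. URA3, the other marker, was at 22100.5, 21989.9 and 25879 CPM against 6549, 8942 and 5685 CPM (-1.72 ± 0.46, edgeR FDR 0.018). Neither marker's groups overlapped, and the markers were lower in the same libraries in which the plasmid carried moxGFP, although the call of URA3 was lost without vector replicate 1 (edgeR FDR 0.0549) or vector replicate 3 (0.0565). Plasmid copies were not measured in these libraries.

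Genes of ribosome assembly were higher as a group. Of 68 genes tested for the small subunit processome and 40S assembly, the factors that process the precursor of the small subunit RNA, 50 were called higher and 0 lower, with a median log2 fold change of 1.67. Of 77 genes of large subunit assembly, 61 were higher and 0 lower (median 1.69). Against a background of 14.8% called higher over all genes, these were 73.5 and 79.2% of the lists. All gene lists, here and below, were chosen with earlier results of these data known. Their shares describe the lists and are not independent support. Without moxGFP replicate 2, the counts were 59 and 69, with medians of 1.75 and 1.69. Leaving out any 1 of the 6 libraries gave from 37 to 59 higher genes in the first list and from 47 to 69 in the second, and 1 gene of the first was called lower without vector replicate 3. The assembly lists hold almost only genes of unique sequence: 141 of their 145 genes have neither a near-identical copy nor an overlapping gene in R64, the reference annotation. Of the 111 higher genes, 108 were among these. Rows of the count table without a match in R64 were not searched for overlaps.

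RPF2, needed to bring the small 5S RNA into the large subunit, was at 5.57, 13.7 and 3.88 CPM in the vector control and 35.4, 103 and 60.9 CPM with moxGFP, a log2 fold change of 3.09 ± 0.54 (edgeR FDR 0.00335) that was 3.803 without vector replicate 2. NOC2, which accompanies large subunit precursors from the nucleolus to the nucleoplasm, was at 6.52, 10.3 and 6.09 CPM against 42, 68.2 and 60.5 CPM (2.89 ± 0.40, edgeR FDR 0.00146). RLP24, a ribosomal-like protein of the late nuclear precursor, was at 6.99, 13.6 and 7.08 CPM against 42.8, 77.6 and 69.9 CPM (2.77 ± 0.38, edgeR FDR 0.00141). In each of these genes all 3 moxGFP libraries lay above all 3 vector libraries, with moxGFP replicate 2 the highest and moxGFP replicate 1 the lowest of the 3. On the small subunit side, DBP4, an RNA helicase, went from 2.61, 4.5 and 3.35 to 20.2, 27.7 and 33.4 CPM (2.95 ± 0.31, edgeR FDR 0.000475). UTP23, a processome component, went from 3.56, 6.22 and 2.89 to 20.2, 39.1 and 31.7 CPM (2.83 ± 0.39, edgeR FDR 0.00134). FAF1, needed for 18S RNA processing, went from 1.9, 3.82 and 0.914 to 13.1, 14 and 20.6 CPM (2.83 ± 0.48, edgeR FDR 0.00303, and 3.52 without vector replicate 2). NSR1, a nucleolin-like protein, was the most even of those named, with 31.2, 37.2 and 28.3 CPM in the vector control and 158, 195 and 183 CPM with moxGFP (2.47 ± 0.25, edgeR FDR 0.000368). NOP1, the methyltransferase of box C/D particles, did not pass the test, at 182, 169 and 196 against 435, 203 and 258 CPM (edgeR FDR 0.0986), and did without moxGFP replicate 2 (log2 fold change 0.92, edgeR FDR 0.0147). UTP18, another processome component, had the lowest fold change of the small subunit list, at -1.02, and was not called.

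The stretches below, read from R64 (RefSeq), are shown because the 3 large subunit genes above carry both elements close together. Each is read 5′ to 3′ on the coding strand of its gene, and capitals mark RRPE (AAAAATTTT, searched on both strands) and PAC (GATGAG, searched on both strands, overlapping copies allowed). The stretches lie at chrXI:592640-592695 on the minus strand, 155 to 100 bases before the start codon of RPF2, at chrXV:727346-727411 on the plus strand, 166 to 101 bases before that of NOC2, and at chrXII:166274-166361 on the plus strand, 263 to 176 bases before that of RLP24.
RPF2: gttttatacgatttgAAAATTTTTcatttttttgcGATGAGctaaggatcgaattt
NOC2: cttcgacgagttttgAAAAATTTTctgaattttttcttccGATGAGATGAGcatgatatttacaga
RLP24: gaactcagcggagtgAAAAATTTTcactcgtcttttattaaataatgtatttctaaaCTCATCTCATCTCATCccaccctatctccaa
In RPF2 the RRPE and in RLP24 the PAC copies lie on the other strand. In RLP24, 3 PAC copies follow each other with a shared base, and in NOC2 a pair does the same. Within 500 bases before the start codon, PAC was present in 60 of 68 small subunit genes (88.2%) and in 69 of 77 large subunit genes (89.6%), against 28.3% of all 5825 windows searched. RRPE was present in 61.8 and 63.6% of the lists and in 9.65% of all windows. Both elements stood before 81 of the 145 assembly genes (55.9%) and 4.88% of all genes. Outside the assembly lists, 203 genes had both, of which 60 (29.6%) were called higher and 10 (4.93%) lower. Of the windows of all genes called higher, 44.1% held PAC, as did 20.9% of those of genes called lower and 26.5% of the rest. A match of these letters is a description of the window and not evidence of binding.

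The polymerases that transcribe ribosomal and transfer RNA moved with the assembly factors, with smaller medians. Of 17 genes of RNA polymerase I and its factors, 8 were called higher and 0 lower (47.1% higher, beside 14.8% of all genes, median 0.99). There were 11 higher without moxGFP replicate 2 and 3 without vector replicate 1 or without vector replicate 3. Of 19 genes of RNA polymerase III and its factors, 10 were higher (52.6%) and 0 lower (median 1.08). There were 11 higher without moxGFP replicate 2, 3 without vector replicate 1 or 3 and 5 without moxGFP replicate 3. RPC19, a subunit that both enzymes share, was at 10.2, 15.2 and 6.93 CPM against 30.5, 44.3 and 48.7 CPM (1.93 ± 0.32, edgeR FDR 0.00302). RPA43, a polymerase I subunit that contacts the initiation factor Rrn3, was at 4.98, 9.52 and 4.49 against 16.8, 33 and 24.6 CPM (1.95 ± 0.37, edgeR FDR 0.00502). RPA190, the largest subunit of polymerase I, was at 37.8, 29.1 and 32.4 against 76.9, 19.2 and 67.9 CPM and was not called (edgeR FDR 0.193). Here moxGFP replicates 1 and 3 lay above the vector control and replicate 2 below it, and the gene was called without that replicate (1.13, edgeR FDR 0.00258). RPA190 is over 2000 bases long, the class that replicate 2 read lower, and the part of length in this value was not tested.

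**Figure D2:**
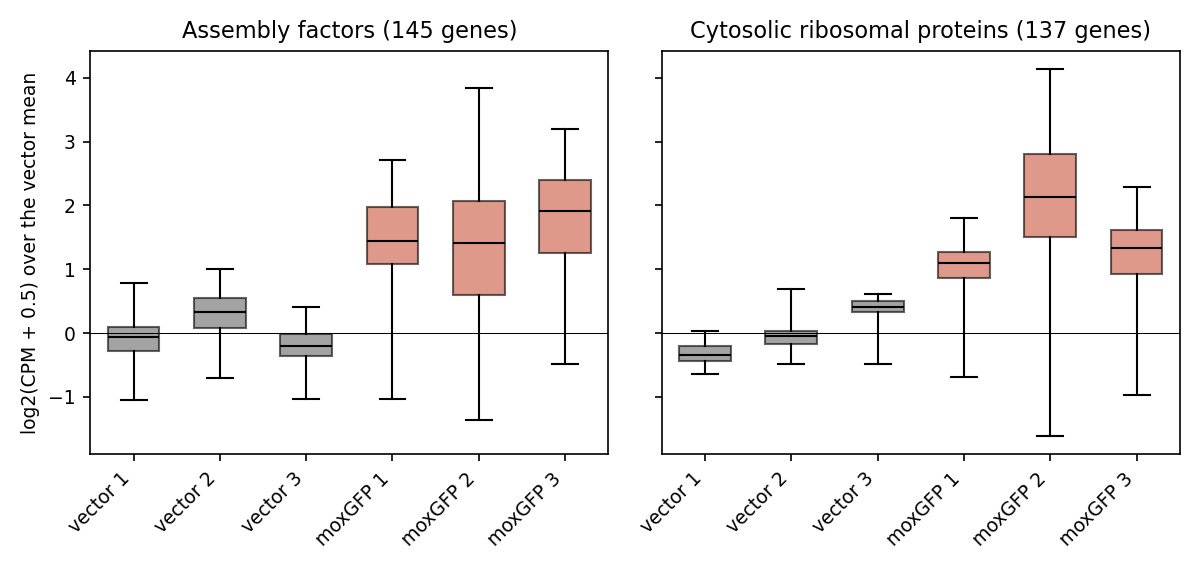
Box plots of log2(CPM + 0.5) relative to the mean of the 3 vector libraries, for 145 ribosome assembly genes (left) and 137 cytosolic ribosomal protein genes (right), 1 box per library (box, quartiles; line, median; whiskers, lowest and highest gene). The medians of the assembly genes were 1.44, 1.40 and 1.91 in moxGFP replicates 1 to 3, and those of the ribosomal protein genes 1.10, 2.13 and 1.33.

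Genes of the cytosolic ribosomal proteins themselves were higher too, but unevenly between libraries. Of 81 large subunit genes, 66 were called higher (median 1.70), and of 56 small subunit genes 42 (median 1.42), with 0 lower in both. Summed over the list, the large subunit genes took 31073, 33125 and 47463 CPM in the vector control and 65541, 164882 and 63878 CPM with moxGFP, and the small subunit genes 18225, 20248 and 30137 against 43299.6, 98869 and 48815 CPM. The groups did not overlap, yet moxGFP replicate 2 held more than the other moxGFP libraries by a wide margin, as the box plots of the ribosomal genes show. Without it the medians were 1.23 and 1.12, and 63 and 46 genes were called. The counts were lower without vector replicate 1, at 26 and 7, and without vector replicate 2, at 43 and 20. These genes are short, the class that replicate 2 read higher, and the part of length in their values was not tested. Of the 137 genes, 96 have a near-identical copy, between which the counting could split reads. Of the 40 with neither a copy nor an overlapping gene in R64, 29 were called higher.

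RPL36A went from 52, 64.5 and 72 CPM to 197, 1025 and 266 CPM, a log2 fold change of 2.98 ± 0.58 (edgeR FDR 0.00544) that was 1.87 without moxGFP replicate 2 (edgeR FDR 0.000456). RPS21B went from 101, 119 and 138 to 365, 1155 and 472 CPM (2.48 ± 0.45, edgeR FDR 0.00398, and 1.81 without that replicate). RPS31, whose product is a fusion of ubiquitin with a ribosomal protein, went from 780.2, 1029.6 and 1539 to 2297, 13178 and 3158 CPM (2.48 ± 0.65, edgeR FDR 0.0172), with a log2 fold change of 1.28 without moxGFP replicate 2 and no call without vector replicate 1 (edgeR FDR 0.0839) or 2 (0.0614). In all of these the 3 moxGFP libraries lay above the vector control. PAC stood before 18 of the 81 large subunit genes (22.2%) and 12 of the 56 small subunit genes (21.4%), below the share of all windows. Among mitochondrial ribosomal proteins, 30 of 72 were called higher and 0 lower (median 0.86, or 0.68 without moxGFP replicate 2). That is 41.7% higher, beside 14.8% of all genes, and 7, 7 and 11 were called without vector replicate 1, vector replicate 3 and moxGFP replicate 3. Of 41 cytosolic translation factors, 8 were higher and 2 lower (19.5 and 4.88%, beside 14.8 and 14% of all genes). The higher count was 13 without moxGFP replicate 2, 4 without moxGFP replicate 3, and 1, 5 and 2 without vector replicates 1, 2 and 3. TIF11, initiation factor eIF1A, went from 53, 78.1 and 52.9 to 142, 605 and 252 CPM (2.44 ± 0.48, edgeR FDR 0.00544, and 1.67 without moxGFP replicate 2). The lower pair was EFT1 and EFT2, near-identical copies for elongation factor 2, neither of which was called without vector replicate 1, 2 or 3 or moxGFP replicate 3.

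**Figure D3:**
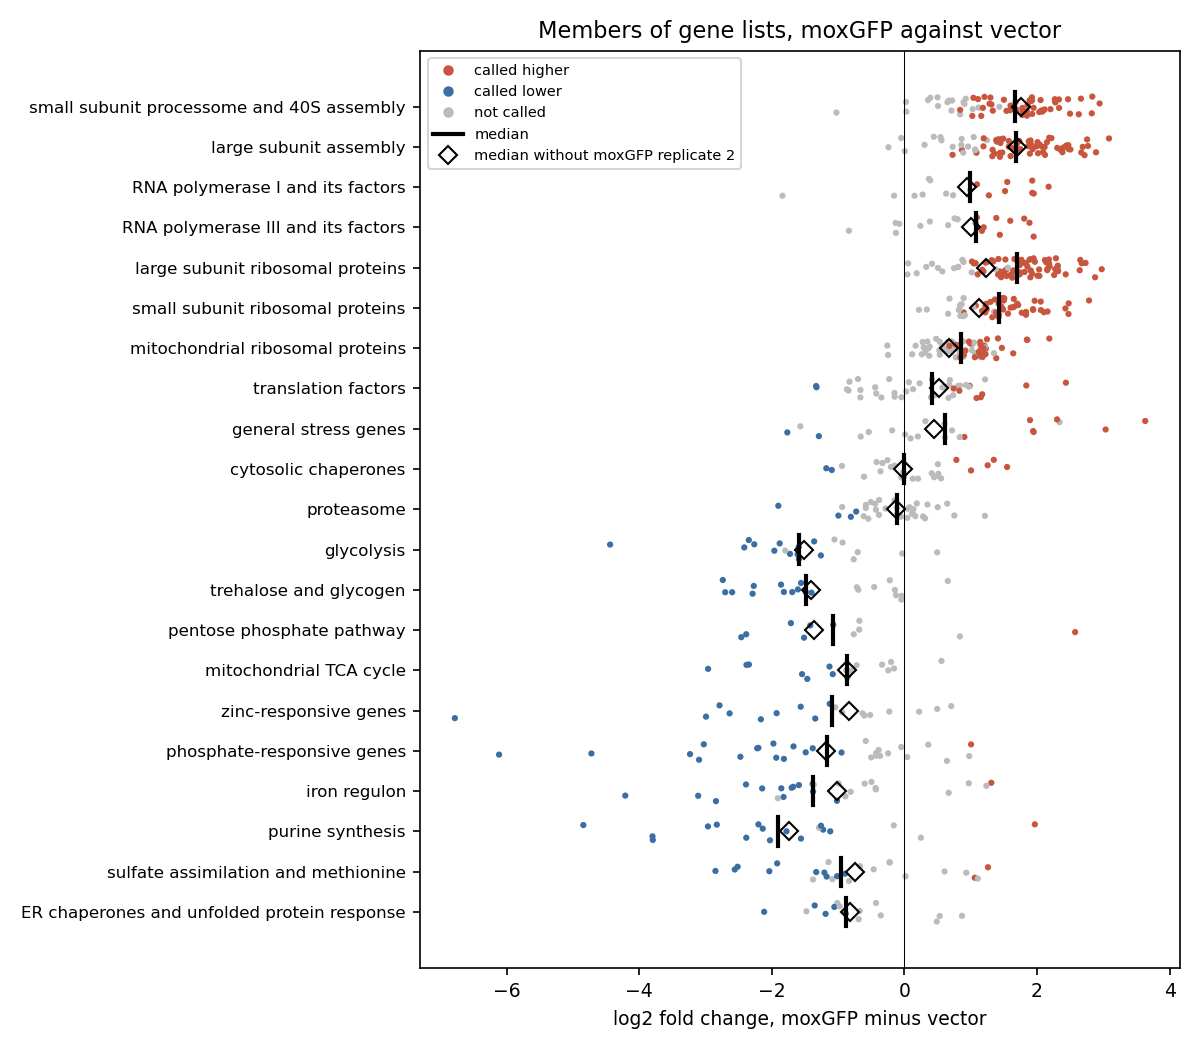
log2 fold change of moxGFP against vector for the members of 21 gene lists, 1 point per gene, coloured by call at an FDR below 0.05. Black bars are list medians in the fit to all 9 libraries and open diamonds the medians without moxGFP replicate 2, which stay on the same side of 0 for each of these lists.

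Genes that report on nutrients held many of the largest decreases. ZPS1, a cell surface protein gene that Zap1 activates when zinc is short, was at 11503, 7363 and 10776 CPM in the vector control and 75.6, 168 and 27.5 CPM with moxGFP, a log2 fold change of -6.78 ± 0.70 (edgeR FDR 0.000398), or -7.59 without moxGFP replicate 2, the largest decrease of all genes that the naming rule admits. ZRT1, the high-affinity zinc importer, was at 8650.3, 10516 and 7373 against 2938, 1635 and 1348 CPM (-2.16 ± 0.42, edgeR FDR 0.00538). ZRT3, which releases zinc from the vacuole, was at 2180.5, 1882 and 1886 against 393, 257 and 211 CPM (-2.79 ± 0.35, edgeR FDR 0.000796). The gene of the activator, ZAP1, which acts on its own promoter, was at 75.7, 76.4 and 52.4 against 26, 26 and 17.5 CPM (-1.56 ± 0.28, edgeR FDR 0.00384). Of 18 zinc-responsive genes 9 were called lower and 0 higher (median -1.08), against a background of 14% called lower, 10 were lower without moxGFP replicate 2 (median -0.84), and leaving out any 1 library left from 8 to 12. The genes not called included the zinc storage transporter ZRC1 at -0.94 and the low-affinity importer ZRT2 at -0.60. The element bound by Zap1 was sought as ACCTT and AAGGT with 1 base between them, on both strands, and was found in 9 of 5825 windows, 3 of them in this list. The stretch before ZRT1 is shown for its copy, in capitals, at chrVII:20759-20799 on the plus strand, 219 to 179 bases before the start codon.
ZRT1: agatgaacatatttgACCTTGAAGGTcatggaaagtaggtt
No copy lay in the 500 bases before ZPS1, which says only that these letters are not in that window.

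Phosphate genes fell in the same libraries. PHO84, the high-affinity phosphate importer, was at 3892, 5219 and 2472 CPM in the vector control and 199.5, 58.6 and 180.3 CPM with moxGFP (-4.72 ± 0.56, edgeR FDR 0.000699). PHO89, a sodium-coupled phosphate importer, was at 405, 481 and 105 against 6.29, 2.92 and 4.66 CPM (-6.11 ± 0.61, edgeR FDR 0.000368). PHO5, the secreted acid phosphatase, was at 436, 305 and 327 against 68.8, 79 and 44.7 CPM (-2.47 ± 0.30, edgeR FDR 0.000714). Vector replicate 3 was the lowest of the control for both importers. It lay above every moxGFP library, which a rule that named both importers required. Of 28 phosphate-responsive genes, 15 were called lower and 1 higher (53.6 and 3.57%, beside 14 and 14.8% of all genes, median -1.16). There were 15 lower without moxGFP replicate 2 and from 12 to 15 whichever library was left out. Vacuolar polyphosphate synthesis was among them, with VTC4 at -2.20, VTC3 at -1.67, VTC5 at -1.49 and VTC1 at -1.38. The gene called higher was PHO3, an acid phosphatase that is repressed by thiamine and not by phosphate, at 65.7, 51.5 and 45.1 against 122, 129 and 74.4 CPM (1.01 ± 0.28, edgeR FDR 0.022), a call lost without vector replicate 2 (edgeR FDR 0.0636) or 3 (0.0939), while 2 genes were higher without moxGFP replicate 1 or 2. The genes of the regulators Pho4, Pho80 and Pho81 were not called, with log2 fold changes of -0.43, -0.43 and -0.05. The E-box that Pho4 binds, CACGTG, stood before 15 of the 28 genes (53.6%) and 6.22% of all genes. The stretches of the 3 genes described are given for their copies in capitals, at chrXIII:26194-26251, chrII:798825-798860 and chrII:431184-431219, all on the minus strand and from 451 to 394, 338 to 303 and 268 to 233 bases before their start codons.
PHO84: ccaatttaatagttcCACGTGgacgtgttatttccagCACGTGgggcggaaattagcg
PHO89: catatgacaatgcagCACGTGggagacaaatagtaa
PHO5: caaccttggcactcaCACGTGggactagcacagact
In all 3 of these genes the vector and moxGFP groups did not overlap, which a naming rule required of PHO84 and PHO89.

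Purine synthesis showed the most complete decrease among the nutrient lists. Of 18 genes, 14 were called lower and 1 higher (77.8 and 5.56%, beside 14 and 14.8% of all genes, median -1.90). There were 14 lower also without moxGFP replicate 2 and from 11 to 14 whichever library was left out. ADE17, which catalyses the last steps of the pathway, was at 4628, 3474 and 1172 CPM in the vector control and 161, 45.8 and 116 CPM with moxGFP (-4.84 ± 0.62, edgeR FDR 0.000956). ADE57, the file's entry for ADE5,7, a bifunctional enzyme of the early steps, was at 8408, 8183 and 2307 against 709.6, 325 and 322 CPM (-3.80 ± 0.58, edgeR FDR 0.00197). SHM2, the cytosolic serine hydroxymethyltransferase that supplies one-carbon units, was at 9126, 5352 and 1995 against 533, 318 and 336 CPM (-3.79 ± 0.56, edgeR FDR 0.00175, and -3.20 without vector replicate 1). The control itself varied here, since vector replicate 3 was well below replicates 1 and 2 in all 3 of these genes. The groups did not overlap, but a rule that named these genes required that. The gene that rose was BAS1, the activator of the pathway, at 3.91, 5.47 and 3.2 against 19.2, 9.92 and 19.8 CPM (1.97 ± 0.35, edgeR FDR 0.00359). The core TGACTC, which Bas1 and Gcn4 both bind, stood before 13 of the 18 genes (72.2%) and 12.7% of all genes. ADE57 is shown for its 2 copies, in capitals, at chrVII:56250-56318 on the plus strand, 232 to 164 bases before the start codon.
ADE57: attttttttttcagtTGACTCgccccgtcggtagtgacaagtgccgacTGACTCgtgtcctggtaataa
GCN4 itself, the activator of amino acid synthesis, was higher with moxGFP, at 564, 350.1 and 657 against 1033, 1557 and 951 CPM (1.17 ± 0.34, edgeR FDR 0.0265), a call lost without vector replicate 1 (edgeR FDR 0.083) or 2 (0.0899). Of 31 genes for arginine, histidine, lysine and aromatic amino acids, 7 were higher and 4 lower (22.6 and 12.9%, beside 14.8 and 14% of all genes). These counts fell to 3 and 1 without vector replicate 1 and to 4 and 2 without vector replicate 2. The lower count was 1 without vector replicate 3 or moxGFP replicate 3. ARG8, ARG3 and ARG1 of arginine synthesis were among the higher genes, at 1.78, 1.65 and 1.33, and HIS4 of histidine synthesis among the lower, at -1.48.

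Iron and sulphur genes were lower as well. Of 26 genes of the iron regulon, 13 were called lower and 1 higher (median -1.37), 15 were lower without moxGFP replicate 2 (median -1.02), and from 10 to 18 were lower whichever library was left out. ENB1, a transporter of the siderophore enterobactin, was at 503, 582 and 373 CPM in the vector control and 43.2, 12.2 and 22.6 CPM with moxGFP (-4.21 ± 0.46, edgeR FDR 0.000475). FIT2, a cell wall mannoprotein that retains siderophores, was at 922, 773 and 913 against 68.4, 192 and 43.1 CPM (-3.11 ± 0.53, edgeR FDR 0.0031, and -3.97 without moxGFP replicate 2). The gene called higher, HMX1 for haem oxygenase, was at 4.15, 7.57 and 5.03 against 14.5, 17.2 and 10.5 CPM (1.31 ± 0.35, edgeR FDR 0.0194), and lost its call without vector replicate 1 (edgeR FDR 0.0823) or 3 (0.0751), while 2 and 3 genes were higher without moxGFP replicates 1 and 2. Of 24 genes of sulphate assimilation and methionine synthesis, 10 were lower and 2 higher (41.7 and 8.33%). There were 4, 6 and 6 lower without vector replicate 1, vector replicate 3 and moxGFP replicate 3. The higher pair, MET4 and MET16, was not called without vector replicate 1 or 3, and 3 genes were higher without moxGFP replicate 1. MET17, which makes homocysteine from sulphide, was at 1555, 878 and 1386 against 279, 141 and 109 CPM (-2.85 ± 0.41, edgeR FDR 0.0016). The nutrient genes given by library, except BAS1, GCN4, HMX1 and PHO3, were lower in all 3 moxGFP libraries than in any vector library. A naming rule required this of ZPS1, PHO84, PHO89, ADE17, ADE57, SHM2 and ENB1.

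**Figure D4:**
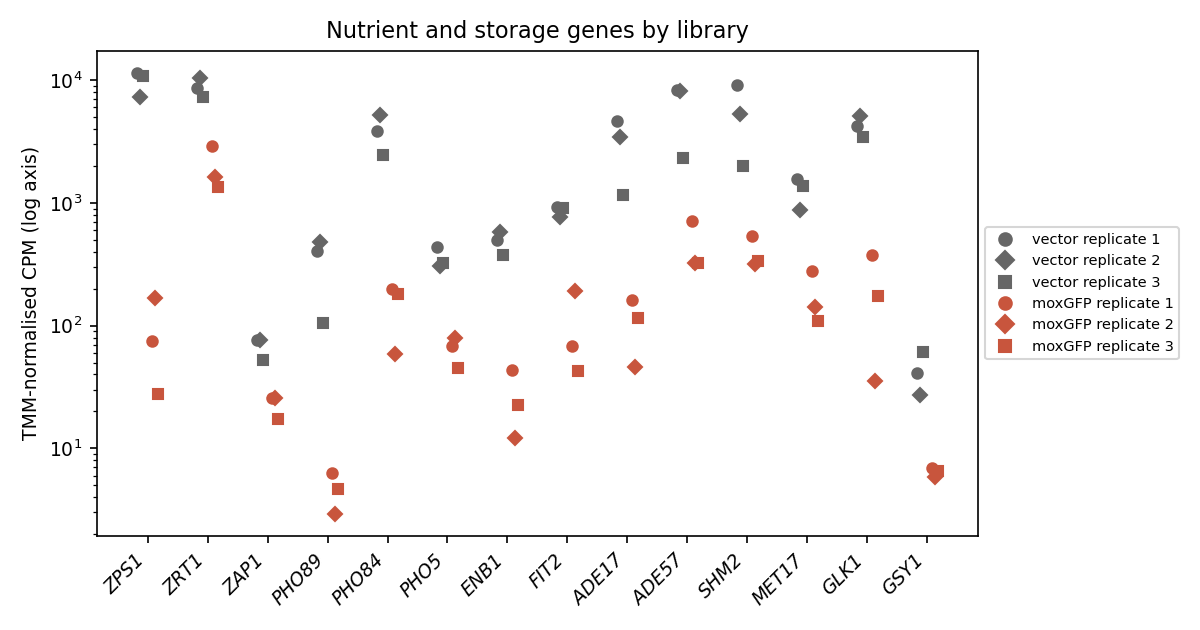
TMM-normalised CPM on a log axis for 14 genes of zinc (ZPS1, ZRT1, ZAP1), phosphate (PHO89, PHO84, PHO5), iron (ENB1, FIT2), purine (ADE17, ADE57, SHM2), sulphur (MET17) and sugar (GLK1, GSY1) metabolism, 1 point per library, grey for vector and red for moxGFP. In every gene shown the 3 moxGFP points lie below the 3 vector points. A naming rule required this of ZPS1, PHO89, PHO84, ENB1, ADE17, ADE57, SHM2 and GLK1.

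Most of the nutrient genes given in full did not differ detectably between moxGFP and EGFP. ZPS1 was at 49.3, 50.9 and 58.5 CPM with EGFP (moxGFP minus EGFP 0.76 ± 0.55 on the log2 scale, edgeR FDR 0.353), ADE57 at 586, 595 and 386 CPM (-0.21 ± 0.52, edgeR FDR 0.813) and MET17 at 191, 189 and 208 CPM (-0.15 ± 0.38, edgeR FDR 0.813). PHO84 was higher with moxGFP than with EGFP, where it was at 41.6, 35 and 21.5 CPM (2.16 ± 0.50, edgeR FDR 0.0201). HMX1, at 55.3, 48.9 and 27.6 CPM with EGFP, was lower with moxGFP (-1.66 ± 0.35, edgeR FDR 0.0144), and ARG8, ARG3 and ARG1 were higher, by 1.22, 1.20 and 1.36 on the log2 scale. The comparison with EGFP shares the moxGFP libraries with that against vector. Over all genes, 922 of 6338 (14.5%) differed between moxGFP and EGFP, 474 higher and 448 lower with moxGFP.

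Many genes of sugar metabolism were lower, genes of the first step included. GLK1, glucokinase, was at 4258, 5108 and 3428 CPM in the vector control and 379.6, 35.3 and 174 CPM with moxGFP, a log2 fold change of -4.44 ± 0.73 (edgeR FDR 0.00298) that was -5.33 without moxGFP replicate 1, and overlaps the open reading frame YCL042W, which was also called lower. HXK1, a hexokinase, was at 235, 176 and 200.04 against 55, 18.1 and 46.3 CPM (-2.35 ± 0.39, edgeR FDR 0.00298). PGK1, phosphoglycerate kinase, was at 29571, 25948 and 28288 against 9899, 1844 and 3976 CPM (-2.41 ± 0.60, edgeR FDR 0.0135), with -3.26 without moxGFP replicate 1 and a call lost without vector replicate 1 (edgeR FDR 0.0524). Of 19 glycolytic genes, 12 were called lower and 0 higher (63.2% lower, beside 14% of all genes, median -1.59), 17 without moxGFP replicate 2 and 6 without vector replicate 1. Of 18 hexose transporter and sensor genes tested, 2 were lower and 0 higher (11.1% lower), with 5 lower without moxGFP replicate 2. HXT1, a hexose transporter gene, was not called in the fit to all 9 libraries (edgeR FDR 0.0662). TDH3, whose promoter also drives moxGFP on the plasmid, was at 82707, 65456 and 67314 against 31587, 65621 and 15753 CPM and was not called (edgeR FDR 0.231). moxGFP replicate 2 was the only moxGFP library within the range of the control for this gene, and without it TDH3 was called lower (-1.61, edgeR FDR 0.0174). TDH3 has a near-identical copy, TDH2. CDC19, pyruvate kinase, was at 6454, 4820.0 and 6090.3 against 3262, 259 and 1480.3 CPM, lower in each moxGFP library without a call (edgeR FDR 0.0667), and was called without moxGFP replicate 1 (-2.72, edgeR FDR 0.0137) or without moxGFP replicate 2 (-1.29, edgeR FDR 0.0208).

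Storage carbohydrate and side pathways followed. Of 21 trehalose and glycogen genes, 12 were called lower and 0 higher (57.1% lower, beside 14% of all genes, median -1.49), and from 11 to 13 whichever library was left out. GSY1, a glycogen synthase, was at 41.5, 27.2 and 60.6 CPM in the vector control and 6.88, 5.83 and 6.5 CPM with moxGFP (-2.74 ± 0.32, edgeR FDR 0.000697). GDB1, the glycogen debranching enzyme, was at 291, 241 and 167 against 54.7, 20.4 and 31.6 CPM (-2.70 ± 0.41, edgeR FDR 0.00194). TPS1, trehalose phosphate synthase, was at 315, 226 and 324 against 108, 130.1 and 70.8 CPM (-1.49 ± 0.32, edgeR FDR 0.00803). Genes of synthesis and of breakdown were both among the 12. The stress response element AGGGG stood before 17 of the 21 genes (81.0%) and 34.2% of all genes. Of 11 pentose phosphate genes 6 were lower (54.5%, and 8 genes without moxGFP replicate 2), with ZWF1, the enzyme of entry, at 1121, 951 and 1155 against 288, 169 and 160.0 CPM (-2.39 ± 0.35, edgeR FDR 0.00167). RKI1, ribose phosphate isomerase, was the gene of that list called higher, at 15.8, 15.7 and 17.8 against 68.3, 129 and 98 CPM (2.58 ± 0.29, edgeR FDR 0.000608). Of 17 genes of the mitochondrial citric acid cycle, 7 were lower (41.2%) and 0 higher, with 9 lower without moxGFP replicate 2 and 4 without vector replicate 1 or 3. ACO1, aconitase, was at 1499, 957 and 1086 against 237, 74.7 and 143 CPM (-2.96 ± 0.42, edgeR FDR 0.00165).

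Stress genes did not move as a block. Of 22 general stress genes, 7 were called higher and 2 lower (31.8 and 9.09%, beside 14.8 and 14% of all genes, median 0.61). The counts were 7 and 3 without moxGFP replicate 2 (median 0.45), and 4 and 1 without vector replicate 1. Without vector replicate 3, 4 were higher. AGGGG stood before 18 of these 22 genes as well (81.8%). The trehalose and glycogen list, with a like share, had a median on the other side of 0. A role of this element was not tested. DDR2, a small stress-induced protein gene, was at 3.32, 3.75 and 1.83 CPM in the vector control and 34.7, 50.7 and 25.6 CPM with moxGFP (3.63 ± 0.43, edgeR FDR 0.000699). HSP12, a membrane-protecting stress protein, was at 16.6, 29.9 and 5.71 against 81.4, 249 and 99.8 CPM (3.04 ± 0.63, edgeR FDR 0.00711, 2.37 without moxGFP replicate 2 and 3.68 without vector replicate 2). Of 27 cytosolic chaperone genes, 5 were higher and 2 lower, beside 14.8 and 14% of all genes (a median of -0.00 that changed sign between alternatives), and without moxGFP replicate 2, 4 were higher and 5 lower. Leaving out vector replicate 1, 2 or 3 left 1 higher gene, leaving out moxGFP replicate 3 left 3, and leaving out vector replicate 1 or 3 or moxGFP replicate 3 left no lower one. SSA1, a major cytosolic Hsp70, was at 944, 763 and 1087 against 423, 525 and 287 CPM (-1.18 ± 0.33, edgeR FDR 0.0222), with no call without vector replicate 1 (edgeR FDR 0.0731), vector replicate 3 (0.0807) or moxGFP replicate 3 (0.0661), and its reads cannot be fully told from those of its copy SSA2. HSP104, the disaggregase, was at 59.7, 74.3 and 92.9 against 59, 105 and 61.7 CPM, with overlapping groups (-0.01 ± 0.30, edgeR FDR 0.974). CTT1, the cytosolic catalase, was at 10.1, 10.04 and 12.3 against 17, 17.8 and 14.8 CPM and was not called (edgeR FDR 0.0852).

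These genes were also tested against EGFP. SSA1 was at 2626, 2589.9 and 2246 CPM with EGFP, and moxGFP minus EGFP was -2.59 ± 0.34 on the log2 scale (edgeR FDR 0.00324). HSP104 was at 341, 326 and 341 CPM (-2.17 ± 0.31, edgeR FDR 0.00401) and CTT1 at 58.3, 83 and 63.6 CPM (-2.05 ± 0.25, edgeR FDR 0.00224). DDR2 was at 271, 381 and 173 CPM with EGFP (-2.90 ± 0.40, edgeR FDR 0.00378). Of the cytosolic chaperones, 17 of 27 were lower with moxGFP than with EGFP and 0 higher, against 7.07% of all genes called lower in that test. Of the trehalose and glycogen genes, 16 of 21 were lower than with EGFP. In the assembly lists, 27 of 68 and 37 of 77 genes were higher with moxGFP than with EGFP and 0 lower, against 7.48% of all genes.

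**Figure D5:**
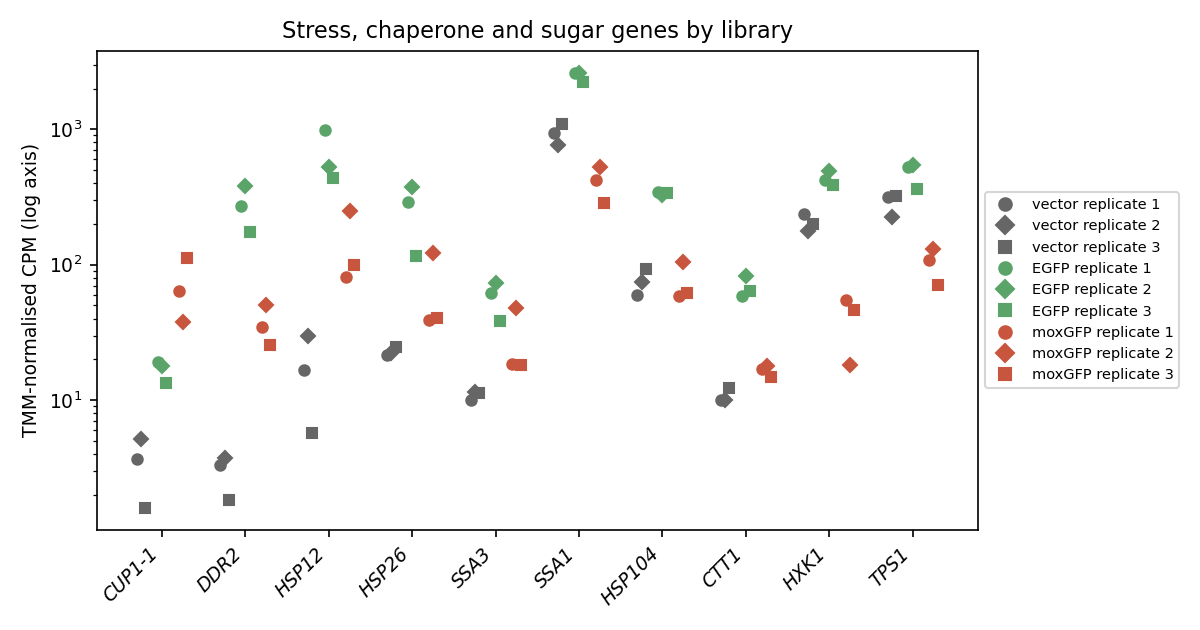
TMM-normalised CPM on a log axis for 10 genes in all 9 libraries, 1 point per library, grey for vector, green for EGFP and red for moxGFP. DDR2 and HSP12 lie between vector and EGFP with moxGFP, SSA1, HXK1 and TPS1 below both, and CUP1-1 above both.

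Of the other protein control lists, 15 genes of endoplasmic reticulum chaperones and the unfolded protein response gave 5 lower and 0 higher calls. That is 33.3% lower, beside 14% of all genes (median -0.88, or -0.82 without moxGFP replicate 2). KAR2, the Hsp70 of that compartment, was at 1463, 1454 and 1277 CPM in the vector control and 415, 285 and 269 CPM with moxGFP (-2.11 ± 0.31, edgeR FDR 0.00167), and the list had 7 lower genes without moxGFP replicate 2, 3 without vector replicate 1 or 3 or moxGFP replicate 3, and 2 without vector replicate 2 or moxGFP replicate 1. Of 34 proteasome subunits and RPN4, their activator, 4 were lower and 0 higher (11.8%, near the 14% of all genes), 7 lower without moxGFP replicate 2, 2 without vector replicate 2 and 1 without vector replicate 1, vector replicate 3 or moxGFP replicate 3. RPN4 was at 17.5, 23.8 and 22.9 against 46.3, 11.7 and 49.4 CPM, not called (edgeR FDR 0.194) with moxGFP replicate 2 below the control and the others above it, and was called without that replicate (1.15, edgeR FDR 0.00243). Of 9 cyclins, CLB5 and CLB3 were called higher and CLN3 and CLN2 lower, at 1.06, 0.96, -1.19 and -1.03. That is 22.2% in each direction, beside 14.8 and 14% of all genes. Each of these 4 calls was lost in at least 3 of the 6 leave-one-out fits, those without vector replicate 1 among them. Without moxGFP replicate 2, 5 cyclins were higher.

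The 12 largest increases that the naming rule admits included the MOX and GFP entries, and no member of the ribosome and nutrient lists above. YAL037C-A, a short open reading frame of unknown function that lies 137 bases past the end of CDC19 on the opposite strand, was at 7.94, 3.37 and 2.59 CPM in the vector control, 4.34, 6.31 and 1.44 CPM with EGFP and 403, 395 and 632 CPM with moxGFP (6.70 ± 0.64, edgeR FDR 0.000322, and 7.32 without vector replicate 1). The MOX entry moved with it, and YAL037C-A had 0.252, 0.369 and 0.258% as many counts in moxGFP replicates 1 to 3. Whether reads of the plasmid reach this row was not tested. The rows of the CUP1 repeat, which holds the copper metallothionein genes in tandem copies, were higher too. CUP1-1 was at 3.67, 5.17 and 1.6 CPM, and 19.2, 17.9 and 13.3 CPM with EGFP, against 63.6, 37.9 and 112 CPM with moxGFP (4.35 ± 0.51, edgeR FDR 0.000697, and 2.09 ± 0.46 over EGFP, edgeR FDR 0.016). The copies of the repeat share sequence, CUP1-2 had almost no counts, and antisense rows RUF5-1 and RUF5-2 overlap the metallothioneins, so that the level belongs to the repeat and not to a named copy. Within the other copper genes, CTR2, the vacuolar copper exporter, was lower (420.0, 318 and 319 against 163, 41.4 and 108 CPM, -1.75 ± 0.42, edgeR FDR 0.0123), without a call when vector replicate 1 was left out (edgeR FDR 0.0599). YDL228C, YPR044C, YGL102C and YLR198C, dubious or uncharacterised reading frames, also rank among the 12 largest increases, with moxGFP replicate 2 far above the other libraries. YDL228C, for one, was at 49.3, 33.6 and 47.8 against 144, 2848 and 69.7 CPM, with a log2 fold change of 4.55 that was 1.29 without that replicate. Their calls were lost without vector replicate 1, 2 or 3. Whether reads of other genes at the same positions reach these rows was not tested. Overlaps were searched only among R64 genes.

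The mating type of the cultures was checked on markers, since a diploid with both mating types keeps haploid genes off. MFA1 and MF(ALPHA)1, the pheromone genes of the a and alpha types, averaged 0.589 and 1.05 CPM in the vector control and 4.31 and 16.5 CPM with moxGFP. MF(ALPHA)1 was at 1.19, 0.824 and 1.14 CPM against 14.9, 14.3 and 20.2 CPM (3.97 ± 0.43, edgeR FDR 0.000475). The receptor genes STE2 and STE3 averaged 13.1 and 8.65 CPM against 10.8 and 6.69 CPM and were not called. Over the 20 haploid-specific and mating-type genes tested, the summed level was 504, 361 and 426 CPM in the vector control and 219, 201 and 176 CPM with moxGFP, and most of it in the vector control came from FAR1, AXL1 and SAG1. FAR1, an inhibitor of the cell cycle in mating, was at 131, 104 and 119 against 16.6, 23.9 and 10.2 CPM (-2.82 ± 0.34, edgeR FDR 0.000714), and AXL1, a bud site and pheromone-processing protease, at 124, 87.4 and 103 against 23.9, 33.2 and 19.2 CPM (-2.05 ± 0.30, edgeR FDR 0.00167). In all, 4 of the 20 were called higher and 6 lower (20 and 30%, beside 14.8 and 14% of all genes). Without vector replicates 1, 2 and 3 the higher count was 2, 2 and 1. Of 10 meiotic markers 3 (30%, beside 14% of all genes) were lower and 0 higher, with 1 lower without vector replicate 1 and 2 without vector replicate 3 or moxGFP replicate 3.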

How the data were processed

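The authors deposited 1 table of read counts, whole numbers per gene and library, not normalized. Per the study's methods, total RNA was extracted with hot phenol from 3 cultures per group given as biological replicates, ERCC spike-ins were added, and libraries made with the TruSeq Stranded Total RNA kit were sequenced paired-end on an Illumina NextSeq. Reads were trimmed with FastP, aligned with Hisat2 and assigned with StringTie. The submitters' processing notes name HISAT2 2.2.0, SAMtools 1.11 and edgeR 3.28.1. The genome build and the strand setting of the counting are not given in the sources used here, so reads of overlapping genes on opposite strands cannot be told apart. Libraries were grouped by their labels.

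Counts of the 7128 gene rows, without the 92 ERCC rows, were filtered with filterByExpr, scaled by TMM and tested with edgeR 4.0.16 (quasi-likelihood test, R 4.3.3, limma 3.58.1) in 1 fit to all 9 libraries, with moxGFP minus vector and moxGFP minus EGFP as contrasts, a Benjamini-Hochberg FDR below 0.05 over 6338 genes as the threshold and no list-wise adjustment. Shares of counts carry counting error only, with a 95% Wilson interval of 61.1 to 61.2% for the ribosomal RNA share of moxGFP replicate 2, and a count of 0 allows up to 3 counts. The median count per tested gene was 63 in moxGFP replicate 2 and 136 to 225 in the other libraries compared, so that it measured low genes less precisely. On simulated counts at a biological coefficient of variation of 0.3, the test recovered 97% of 200 genes changed 4-fold, with 5.37% false calls, over 6322 genes. Every simulated library had the mean composition of the vector control apart from those genes. None resembled moxGFP replicate 2 or held an abundant transgene, so these rates do not describe the test on these data. The common value in the data was 0.364, or 0.255 without moxGFP replicate 2.

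Alternatives were DESeq2 1.42.0 size factors and its Wald test, library sizes alone, ERCC scaling, limma-voom, other filters, rows left out, the 6 libraries alone, a replicate block, and each library left out in turn. Gene names and upstream sequence came from the R64 RefSeq annotation, to which 6048 rows matched by locus tag, and near-identical copies were found with BLAST 2.17.0 (identity of 90% or more, on 50% or more of the gene). Overlapping genes were sought on either strand among R64 genes alone, so rows without a match in R64 were not counted as overlaps. Upstream windows of 500 bases were searched with Python 3.11.15, pandas 2.3.3 and numpy 2.4.6, and figures were drawn with matplotlib 3.10.9. The gene lists and members were chosen with earlier results of these data known. Genes named were the transgene and marker entries, per direction the 12 largest changes called with and without moxGFP replicate 2 with groups that did not overlap and a mean of at least 10 CPM in the higher group, per list the 3 largest called changes in its main direction and the largest in the other, and genes that define a pathway. Others (UTP18, the VTC genes, ZRC1, ZRT2, the PHO regulators, EFT1, MET4, MET16 and mating genes among them) were named after their values were seen. Libraries were not found to be deposited more than once.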

Additional observations from a re-analysis of the deposited data

How the results depend on the processing

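Most calls were lost with library sizes alone or with the spike-ins as the library size. Against 937 genes higher and 887 lower, library sizes alone gave 104 and 144 (41.9% of calls higher, against 51.4%), the ERCC spike-ins 10 and 15 (40% higher), and the 6 libraries alone 609 and 605. Leaving out 1 library gave from 346 to 1182 higher and from 404 to 1206 lower genes, the lowest without vector replicate 1 and the highest without moxGFP replicate 2, and 58.1% of calls were higher without moxGFP replicate 3. The cause of these differences was not tested, except that fits without a library rest on fewer samples. Under TMM, library sizes alone and the spike-ins, the small subunit assembly median was 1.67, 1.66 and 1.905. That of large subunit ribosomal proteins was 1.70, 1.425 and 1.24. Within the vector group the ERCC share ranged from 0.144 to 0.405%. The TMM factor of moxGFP replicate 2 was 0.384, an adjustment absent with library sizes alone. Whether these features lowered the number of calls was not tested. DESeq2 size factors (874 and 941), DESeq2's Wald test (1070 and 1127), limma-voom (872 and 963), fits without ribosomal RNA rows (962 and 882) or without transgene and marker rows (937 and 883), no filter (903 and 859) and a minimum of 10 counts in every library (982 and 849) stayed within 1.5 times of these counts. A replicate block in the fit gave 730 higher and 780 lower calls, 1474 of them shared with the fit without it. Same-numbered vector and moxGFP libraries did not deviate together (correlations of 0.05, -0.02 and 0.12), so the numbers were not taken as pairs. No named gene that was called changed sign. HSP104, not called, ranged from -0.33 to 0.16 over the fits that left out 1 library, and the median of the cytosolic chaperones, -0.00, was 0.13 without moxGFP replicate 1 and 0.12 without vector replicate 3. Of the 172 named genes, 32 kept their side of the threshold with the spike-ins, 84 with library sizes alone, 157 with the block and 163 without moxGFP replicate 2. The low depth of moxGFP replicate 2 outside ribosomal RNA, 3474189 counts against at least 8195375 in the other libraries compared, limits what it shows for genes with few counts.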

Other observations

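Genes of the secretory route, picked after their values were seen and so described without support from the counts, included members called lower with moxGFP than with the vector control, beside 14% of all genes called lower and 14.8% called higher. Of 7 protein O-mannosyltransferase genes, which start the sugar chains of secreted proteins, 6 were called lower (median log2 fold change -1.83). Of 13 genes of COPII vesicles, which carry proteins from the endoplasmic reticulum, 7 were lower (median -1.11), as were 5 of 12 ALG genes of the lipid-linked sugar precursor (median -0.94) and 6 of 19 genes of GPI anchor synthesis, with 1 higher (median -0.76). Of the 4 protein genes of box H/ACA particles, which modify ribosomal RNA, 3 were higher (median 1.79). Without moxGFP replicate 2, 6 O-mannosyltransferase, 8 COPII, 8 ALG and 6 GPI anchor genes were lower. In that fit 2 GPI anchor and 4 box H/ACA genes were higher.

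Reading frames of the table without a match in R64 summed to 43061 CPM in moxGFP replicate 2 and to between 9247 and 11999 CPM in the 5 other libraries compared. Of the 411 such rows tested, 53 were called higher and 41 lower, shares no larger than those of all genes (14.8 and 14%).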
